A study of Mus musculus with 8 samples.

Results

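Hedgehog proteins are secreted signals that pass from one tissue layer to the next. A ligand binds the receptor Patched, which otherwise holds Smoothened silent, and Smoothened then acts through the Gli transcription factors; Gli1, Ptch1 and Hhip are themselves turned on by the pathway and are commonly read as its output. In the adult uterus Indian hedgehog is an epithelial product controlled by progesterone that signals to the stroma, and in the ovary granulosa cells make Indian and desert hedgehog. Described here are the 9 genes of this system on the arrays, namely the ligands Ihh, Dhh and Shh, the receptor Ptch1, the transducer Smo, the factors Gli1, Gli2 and Gli3, and the inhibitor Hhip. They were found by the gene name given to each probe, which gave 16 probes in 61 spots, of 41174 probes and 27670 gene names in all. Probes of 8 of the 9 genes were well above background on all 8 arrays, and the exception was Shh.

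The arrays compare oviducts of adult CD-1 mice that had received daily subcutaneous injections from PND1 to PND5, either of the vehicle corn oil (control, n = 4) or of genistein (Gen), a plant estrogen of soy, at 50 mg/kg/day in that vehicle (n = 4). All mice were superovulated with gonadotropins and mated at 6–8 weeks of age, and both oviducts of 1 mouse made 1 sample, cleared of embryos and taken on GD2 (48 hr from the hCG injection). Each sample was labeled with Cy3 and hybridized to 1 Agilent whole mouse genome array. Signals below are intensities from the scanner software, scaled so that the 75th percentile was the same on every array; means are taken on the log2 scale, and a log2 difference of 1 is a doubling.

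The markers of the labelled tissue were present. All 8 genes on the list of secretory epithelium, Ovgp1 among them, were well above background on all 8 arrays, as were 8 of 9 markers of ciliated epithelium. The secretory list also holds general epithelial genes such as Epcam and Cdh1. The number of probes well above background was 25359–28934 on control arrays and 29527–31480 on Gen arrays, and the 75th percentile before scaling was 1908–2432 and 2149–3772. The 4 control arrays shared 1 slide and the 4 Gen arrays another, and in every result given here the effects of slide and of treatment cannot be told apart. Whole oviducts were used, so fewer cells of a type and less RNA per cell cannot be told apart either. Of all probes, 2.17% were called higher and 14.0% lower in Gen-treated mice (limma adjusted p under 0.05); of the 16799 genes well above background on all 8 arrays the shares were 2.21% higher and 2.40% lower.

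Because 6 of the 9 genes had more than 1 probe and the probes did not always give the same answer, the oligonucleotides that decide the results are shown first. Each stretch is 30 bases of a 60-base probe, read from the deposited files 5′ to 3′, with the position of the whole probe on mouse build mm7. Capitals mark the polyadenylation hexamer in the Dhh probe, which was the only probe of these 4 genes that held one.
Ihh, brighter probe (chr1:75185454-75185513, minus strand): gcgattcttcacacgcattccatctgtctt
Ihh, other probe (chr1:75187527-75187586, minus strand): gctaggggccagagtgtgtctagacatcag
Dhh (chr15:98878292-98878351, minus strand): atttgtggccaaAATAAAgattctagagtg
Ptch1, brighter probe (chr13:61331255-61331314, minus strand): catttggatgttttaatttgtaaaagaaaa
Ptch1, other probe (chr13:61333864-61333923, minus strand): ggggtatttgaggatcctcatgtgcctttt
Hhip, brighter probe (chr8:78511903-78511962, minus strand): atgacgtcttacttgctggatctcacaagt
Hhip, other probe (chr8:78506418-78506477, minus strand): tatagaattatgaccatgagcatgaaagac
The brighter Ptch1 probe had 21.7% G and C over its 60 bases and the other Ptch1 probe 50%, whereas the Ihh probes had 50% and 55% and the Hhip probes 41.7% and 35%.

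Ihh had lower and Dhh higher scaled signals in the oviducts of Gen-treated mice, with no overlap between the groups for either ligand. The brighter Ihh probe, printed in 10 spots on every array, read 1168, 2539.8, 1284 and 1339 in control mice 1 to 4 and 611, 994, 893 and 277 in Gen-treated mice 1 to 4. Control mouse 2 was highest and Gen-treated mouse 4 lowest, and the highest Gen-treated mouse lay below the lowest control. The mean went from 1503 to 622, a log2 difference of -1.27 (SE 0.43, 95% CI -2.27 to -0.28), with a limma adjusted p of 0.0901 and an exact permutation p of 0.0286, the smallest that 4 against 4 arrays can give. Spots of this probe on 1 array differed by an SD of 0.05 log2 units (median over arrays), against an SD between mice of 0.51 (control) and 0.84 (Gen). The spread among mice was therefore far wider than the spread among spots, and only 3.67% of the 16799 genes varied more within treatments than Ihh. Before scaling, the groups overlapped by this probe (1040–2118 in control and 260–1429 in Gen-treated mice). Dhh did not overlap before scaling (643–809 and 1026–2199).

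The other Ihh probe lies 2073 bases away in the genome. It read 353, 1099, 296 and 383 in control mice and 293, 325, 252 and 111 in Gen-treated mice. Mouse 2 of the controls and mouse 4 of the Gen group were again the extremes, but the groups overlapped. The log2 difference was -1.01 (SE 0.49, limma adjusted p = 0.222). Over the 8 arrays the deviations of both probes from their treatment means had a correlation of 0.89, given as a description since both probes were read on the same arrays.

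Dhh, the ligand best known from Sertoli and Schwann cells and also made by granulosa cells, was measured by 1 probe. It read 784, 771, 802 and 728 in control mice and 1572, 2164, 888 and 1089.7 in Gen-treated mice. The controls lay close together (SD 0.06 log2 units), the Gen-treated mice were spread (SD 0.57), with mice 1 and 2 highest, and every Gen-treated mouse was above every control. The mean went from 771 to 1347, a log2 difference of 0.80 (SE 0.26, 95% CI 0.20 to 1.41, limma adjusted p = 0.0797, exact permutation p = 0.0286). Without Gen-treated mice 1 and 2, the difference was 0.35 (limma adjusted p = 0.217).

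Shh, which drives the pathway in many embryonic tissues, was not well above background on any array, although its probe was printed in 10 spots. Its scaled signal was 6.56–15.4 on control arrays and 3.30–4.94 on Gen arrays, a range in which no fold is given. The groups did not overlap and the probe passed the threshold (limma adjusted p = 0.0236, lower in Gen), but a signal not above background in either group was not counted as a call.

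**Figure D1:**
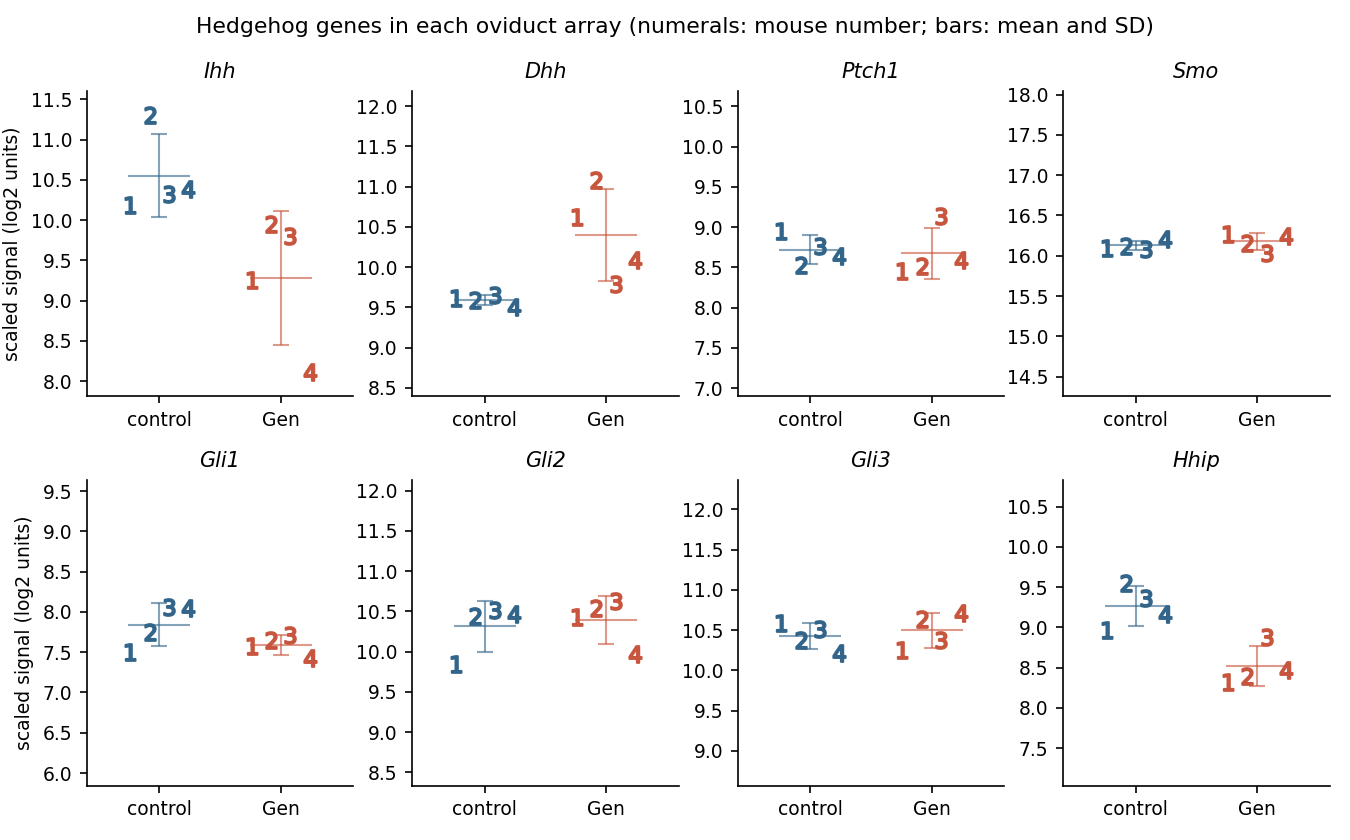
Scaled signal (log2 units, the same span of 3.8 units in every panel) of the 8 hedgehog genes above background, by the probe with the highest mean signal. Each numeral is 1 mouse (blue, control; red, Gen), and bars give the mean and SD of 4 mice. Ihh and Hhip lie lower and Dhh higher in Gen-treated mice with no overlap, and the other 5 genes overlap.

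The balance between the ligands was taken on each array as the log2 signal of Ihh minus that of Dhh. Its level has no meaning across different probes, but a scaling factor cancels in it and its change between groups can be read. It was 0.58, 1.72, 0.68 and 0.88 in control mice (mean 0.96, SD 0.52) and -1.36, -1.12, 0.01 and -1.98 in Gen-treated mice (mean -1.11, SD 0.83). All 4 Gen-treated mice were below all 4 controls, with mouse 3 of the Gen group nearest to them. The groups differed by -2.08 log2 units, or 4.22-fold (exact permutation p = 0.0286, two-sided, 70 divisions of the arrays). The members had been chosen with their directions known. Neither ligand overlapped between the groups and they moved in opposite directions, so this exact permutation p was bound to be the smallest possible. It adds no evidence to the results of the single ligands, and only the difference is read, as the size of the shift in balance. Without Gen-treated mice 1 and 2 the difference was -1.95 (exact permutation p = 0.0667, again the smallest possible).

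Ptch1, the receptor and a target of the pathway, gave different answers by its probes. The brighter probe read 496, 369, 435 and 399.6 in control mice and 351, 367, 565 and 385 in Gen-treated mice, and the groups overlapped throughout (log2 difference -0.05, SE 0.18, limma adjusted p = 0.895). The other probe, printed in 10 spots, read 125, 138, 129 and 124 in control mice and 98.9, 103, 110.0 and 65.4 in Gen-treated mice. By this probe every Gen-treated mouse was below every control, with mouse 4 lowest, but the difference of -0.48 (SE 0.17) did not pass the threshold across all probes (limma adjusted p = 0.113, exact permutation p = 0.0286). Before scaling, the groups overlapped by this probe (104–129 in control and 61.6–176 in Gen-treated mice). The probes lie 2609 bases apart in the genome, and their deviations from the treatment means had a correlation of 0.23 over the 8 arrays.

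Smo, the transducer that Patched restrains, had 1 bright probe with 69434–75940.4 in control mice and 67239.5–78936 in Gen-treated mice. The groups overlapped, and its log2 difference was 0.05 (SE 0.10, 95% CI -0.19 to 0.29, limma adjusted p = 0.808). Another probe gave 0.07 (SE 0.13, limma adjusted p = 0.788), and the third was not well above background on any array.

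None of the 3 Gli factors passed the threshold. Gli1, the activator whose own transcription follows pathway activity, read 181, 215, 267 and 264 in control mice and 191, 201, 210.2 and 172 in Gen-treated mice. Control mice 3 and 4 stood above all others, and the remaining mice overlapped (log2 difference -0.25, SE 0.16, 95% CI -0.61 to 0.11, limma adjusted p = 0.350). An interval of this width holds both no change and a fall by 0.61 log2 units.

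Gli2, the main activator that carries the first response to a ligand, read 919.7, 1389, 1466 and 1415 in control mice and 1380.4, 1493, 1577 and 1002 in Gen-treated mice. Control mouse 1 and Gen-treated mouse 4 were low, the other mice overlapped, and the log2 difference was 0.07 (SE 0.21, limma adjusted p = 0.851). A dimmer Gli2 probe, above background on 2 control and 4 Gen arrays, gave 0.07 (SE 0.27, limma adjusted p = 0.897). Gli3, mostly a repressor when no ligand is present, read 1544, 1326, 1456 and 1192 in control mice and 1221, 1592, 1327 and 1682 in Gen-treated mice. The groups overlapped over nearly their whole range (log2 difference 0.07, SE 0.15, limma adjusted p = 0.795), and a further Gli3 probe was not well above background on any array.

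Hhip, a membrane protein that binds and sequesters the ligands and is induced by the pathway, was the only one of the 8 genes above background that passed the threshold. Its brighter probe read 502, 749, 659 and 573 in control mice and 319, 337, 470.1 and 355 in Gen-treated mice. The highest Gen-treated mouse, number 3, lay just below the lowest control, number 1. The mean fell from 614 to 366, a log2 difference of -0.75 (SE 0.18, 95% CI -1.15 to -0.34, limma adjusted p = 0.0251, exact permutation p = 0.0286). Before scaling, the groups overlapped by this probe (518–624 in control and 291–752 in Gen-treated mice). The other Hhip probe, 5485 bases away, read 158, 212, 190.2 and 157 in control mice and 121, 83.2, 161 and 139 in Gen-treated mice. There the groups overlapped by Gen-treated mouse 3 alone, and the log2 difference was -0.54 (SE 0.22, limma adjusted p = 0.151). The call of Hhip did not hold when probes dim in both groups were left out of the test (limma adjusted p = 0.0748). Without 1 array at a time the limma adjusted p was 0.0373 to 0.0694, past the threshold only without control mouse 4.

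**Figure D2:**
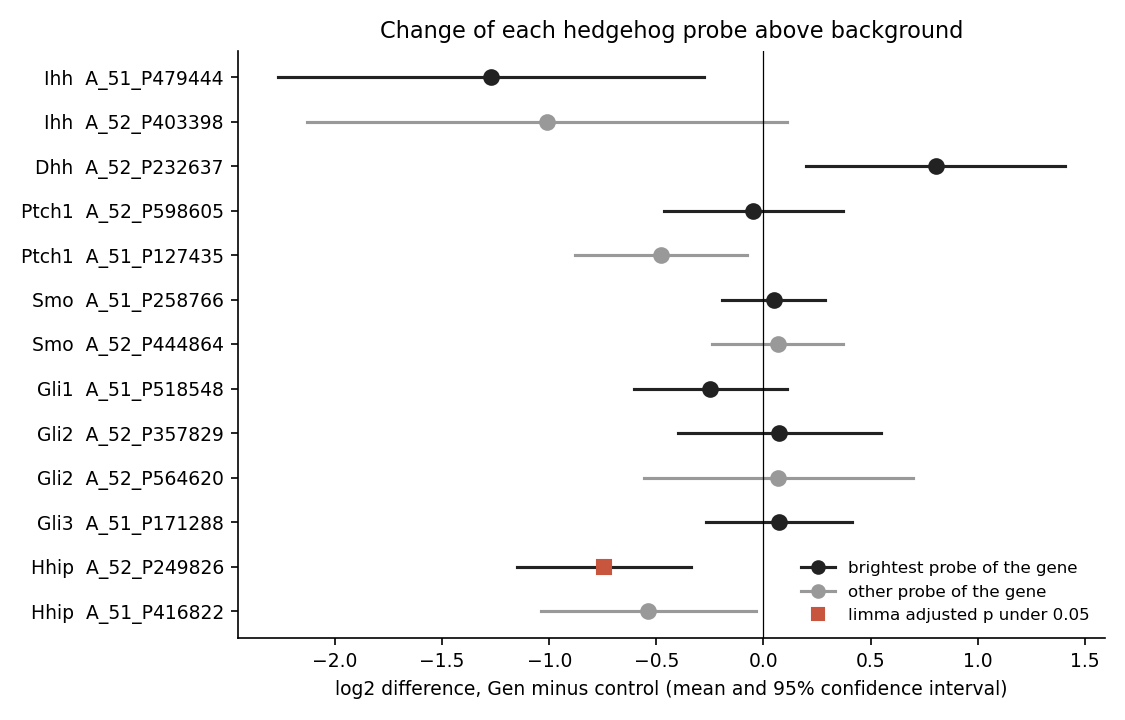
Log2 difference (Gen minus control) of the 13 hedgehog probes above background, with 95% confidence intervals from limma. Black marks the brightest probe of a gene, grey its other probes and red the adjusted p under 0.05 of Hhip. The intervals of both Ihh probes reach far to the left, that of Dhh lies to the right of 0, and those of Smo, Gli1, Gli2 and Gli3 include 0.

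Of the 8 genes above background 0 were called higher and 1 lower, where 2.21% and 2.40% of the 16799 genes measured in the same way were called. Counted by overlap of the scaled signals, Dhh was above in every Gen-treated mouse, as 5.46% of these genes were. Ihh and Hhip were below, as 6.89% were. The ligands' differences were large among these genes: 1.81% had a larger absolute log2 difference than Ihh, 4.61% than Dhh and 5.46% than Hhip, against 84.9% for Ptch1 and 84.6% for Smo.

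The ligands were then set against the readouts array by array. Since treatment separates both ligands, each value was first expressed as its deviation from the mean of its treatment, so that only differences between mice of the same group remained. For Ihh, the correlation over the 8 arrays was 0.31 with Gli1 (Spearman's rho 0.21), 0.01 with Ptch1 (rho -0.38) and 0.47 with Hhip (rho 0.33). The exact permutation p-values for r, over 576 arrangements within treatments, were 0.399, 0.988 and 0.274, and after Benjamini-Hochberg adjustment over the 6 pairs 0.599, 0.991 and 0.549; those for rho were 0.693, 0.387 and 0.474. Gen-treated mouse 4, with an Ihh deviation of -1.17, also had the lowest Gli1 of its group, but control mouse 2, with 0.76, had a Gli1 deviation of -0.09. The groups differed when taken apart, each with 4 mice. With Gli1, r was -0.07 in control and 0.95 in Gen-treated mice. With Ptch1 it was -0.81 and 0.31, and with Hhip 0.83 and 0.27.

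The answer for Ptch1 depended on its probe. By the other Ptch1 probe, printed in 10 spots, the correlation with Ihh was 0.90 (rho 0.83), with exact permutation p-values of 0.0174 for r and 0.0260 for rho, and 0.104 and 0.156 after adjustment over the 6 pairs. Control mouse 2 was highest and Gen-treated mouse 4 lowest in its group on both measures, and without these mice, the most extreme in Ihh, r was 0.56 (exact permutation p = 0.611). Leaving out these mice also narrows the range of Ihh, so the omission cannot decide whether the relation rested on them. The relation did not pass after adjustment.

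For Dhh, the correlation was -0.00 with Gli1 (rho 0.05), -0.63 with Ptch1 (rho -0.50) and -0.53 with Hhip (rho -0.60), with exact permutation p-values of 0.991, 0.267 and 0.231 for r, 0.991, 0.549 and 0.549 after adjustment, and 0.931, 0.354 and 0.170 for rho. Among the Gen-treated mice, mouse 3 had the lowest Dhh of its group with the highest Ptch1 and Hhip. Leaving out the 2 arrays with the most extreme ligand deviations, Gen-treated mice 2 and 3, brought them to -0.16 and -0.19, and Dhh with Gli1 to 0.14. For Ihh, leaving out control mouse 2 and Gen-treated mouse 4 gave 0.40 with Gli1, 0.24 with Ptch1 and 0.44 with Hhip. By the other Hhip probe the correlation with Dhh was -0.84 (rho -0.64, exact permutation p = 0.0469 for r, 0.281 after adjustment), and -0.23 without the same 2 mice. None of the 6 pairs passed the threshold after adjustment, by these probes or the others.

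**Figure D3:**
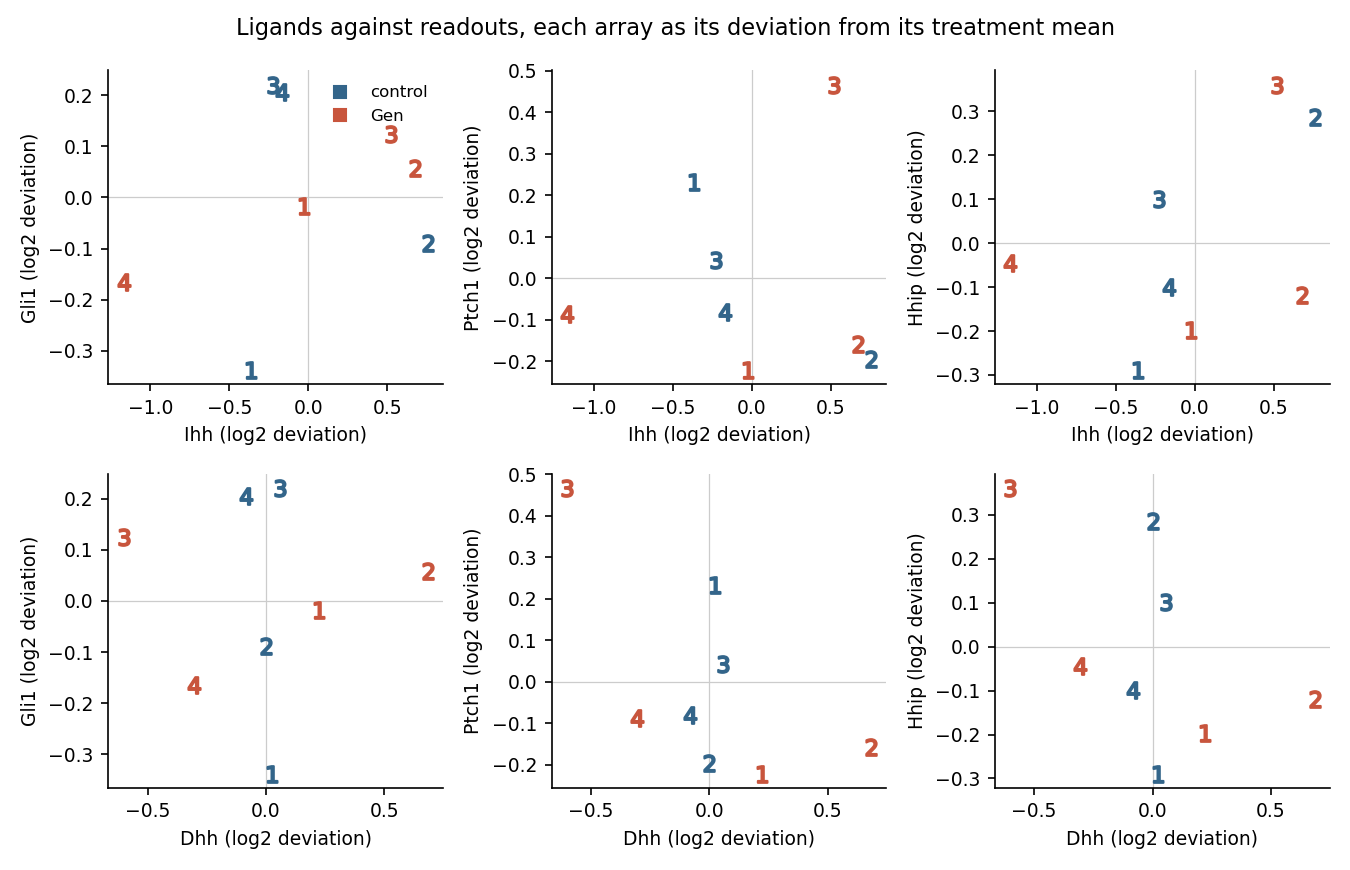
Ihh (upper row) and Dhh (lower row) against Gli1, Ptch1 and Hhip, each axis in log2 units as the deviation from the treatment mean; numerals are mice (blue, control; red, Gen), and each gene is shown by its brightest probe. Over both groups together the points do not fall on a line in any panel. The 4 Gen-treated mice alone lie near a line for Ihh with Gli1 (r = 0.95 within the group). In the lower row the control mice share nearly the same Dhh.

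The marker genes of other cell types that an oviduct sample can hold were read beside the ligands. Some genes on the list of granulosa, theca and luteal cells were higher in Gen-treated mice. Of the 8 measured, 4 were called, Cyp11a1, Hsd3b1, Lhcgr and Inha. Among all 19242 genes well above background on every array of 1 group or both, 608 were called higher. The log2 differences of the list ran from -0.02 to 4.43 (median 2.17), so not every gene on it was raised. Lhcgr and Cyp19a1 were not well above background on any control array. The summed signal of this list was 6930.0, 5920.0, 30334 and 5190.0 in control mice 1 to 4 and 142987, 132599, 34370.3 and 47896.5 in Gen-treated mice 1 to 4. By group means the brightest gene in the sum was Hsd3b1, with 2693 in control and 48830 in Gen-treated mice. The sums of the groups did not overlap, mice 1 and 2 of the Gen group stood highest, and control mouse 3 stood close to Gen-treated mouse 3. Dhh followed nearly the same order among mice: within the controls it was lowest in mouse 4 and highest in mouse 3, as the sum was, and within the Gen group mice 3 and 4 were lowest and mice 1 and 2 highest on both measures. Among the controls Dhh spanned only 728 to 802 (1.10-fold), whereas the sum ran from 5190.0 to 30334. In control mouse 3 and Gen-treated mouse 3, whose sums were nearest to each other, Dhh was 802 and 888. The part of ovarian cells in the Dhh result was not tested.

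**Figure D4:**
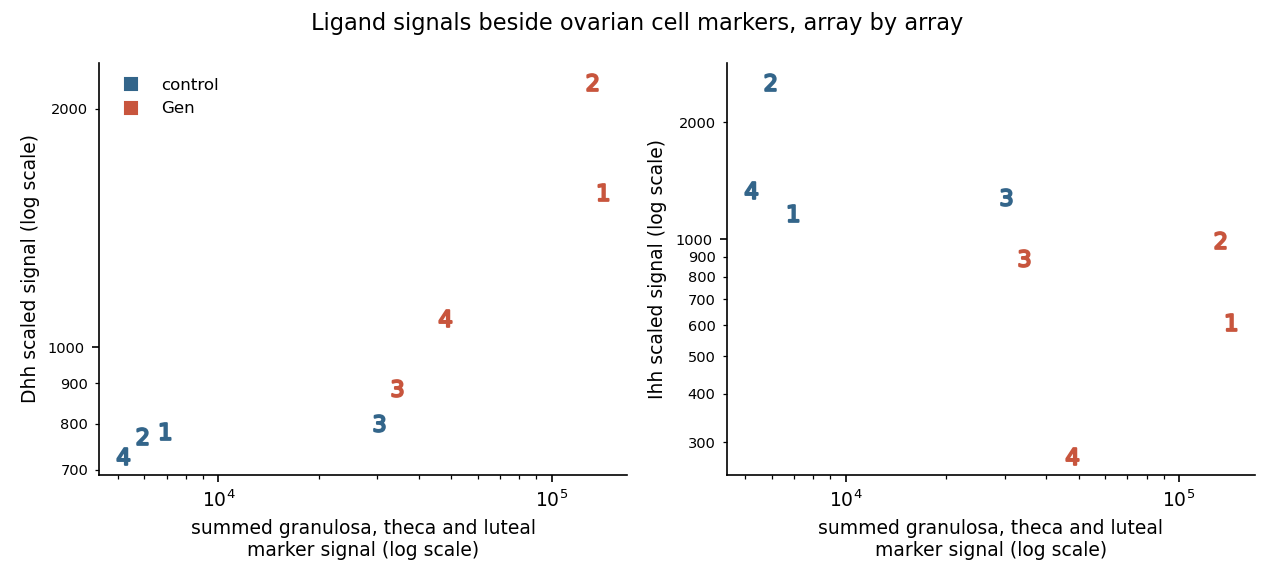
Scaled signal of Dhh (left) and Ihh (right) against the summed signal of 9 granulosa, theca and luteal markers, both on log axes; numerals are mice (blue, control; red, Gen). Dhh is highest in Gen-treated mice 1 and 2, where the marker sum is highest, whereas Ihh is lowest in Gen-treated mouse 4, whose sum lies between those of the other Gen-treated mice.

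Other cell types were also read, beside the 608 genes called higher and 420 called lower among all 19242 measured in the same way. Leukocyte markers were called higher for 3 of 8 genes, Ptprc, Itgam and Adgre1. The leukocyte sum was 13311–17916 in controls and 20257–31151 in Gen-treated mice. It was highest in mouse 2 of the Gen group, where Dhh was highest too. But it was lowest of that group in mouse 1, where Dhh was higher than in mice 3 and 4. Of 8 Schwann cell markers, 2 were called higher, among them Mbp (log2 difference 0.55). The list was mixed, with 6 positive and 2 negative differences, from -0.45 to 0.69 (median 0.18), and the sums overlapped. For the epithelium, where Ihh is made in the uterus, the median log2 difference was 0.03 for the secretory list, with its general epithelial genes. It was -0.07 for the ciliated markers, and both lists had 0 called by limma and overlapping sums. All 8 smooth muscle markers had negative differences, from -0.52 to -0.19, with 0 called by limma and overlapping sums. Stroma (median -0.03), endothelium (median 0.21) and stratified squamous epithelium (median -0.03, with 3 of its 8 markers not above background on any array) had 0 called. How far any of these shifts enters the hedgehog values was not tested.

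The genes whose profile over the 8 arrays was most like that of Ihh were Cope (r = 0.99), the transcript NAP047296-1 (0.99), Guk1 (0.99), Dpm3 (0.98) and Ppm1g (0.98), of 16798 genes compared. Their own log2 differences were small, from -0.46 to -0.25. By deviations from the treatment means the nearest were NAP047296-1, Cope, Tubb2b, Ivns1abp and Fbxw5 (r between 0.97 and 0.98). Those most like Dhh were Exoc3l (0.98), Adamts19 (0.98), Nr1h4 (0.97), Zfp280b (0.97) and the unnamed probe A_51_P333594 (0.96), and by deviations Aurkc (0.99), Klhl5 (0.99), A_51_P333594 (0.99), LOC385234 (0.98) and Exoc3l (0.98). None of the other hedgehog genes was near the top of these lists: by signal, the nearest to Ihh was Hhip, at rank 1232 (r = 0.79), and the nearest to Dhh was Smo, at rank 3287 (r = 0.40).

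Beyond the 9 genes, 89 further genes of the pathway were listed by role, of which 88 had a probe and 82 were above background on every array of 1 group or both. Of these, 0 were called higher and 4 lower by limma, and the median log2 difference was -0.01, where the 19242 genes measured in the same way had a median of 0.03 with 608 called higher and 420 lower. The 4 called genes were Lrp2, Scube2, Sox17 and Pgr.

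Among 8 measured genes of ligand processing and release, Scube2, a secreted protein that helps to free the lipid-modified ligand, fell from 756 (704–845) to 446 (306–621), a log2 difference of -0.76 (SE 0.21, limma adjusted p = 0.0464). The next largest was Gpc6, a glypican, at -0.29 (limma adjusted p = 0.492). Scube2 did not overlap between the groups, but it was lost as a call without any 1 of the 8 arrays (limma adjusted p 0.0599 to 0.118).

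Among 7 measured genes of co-receptors and ligand binding, Lrp2 (megalin), an endocytic receptor of epithelia that takes up Shh among many other ligands, fell from 12900.2 (7307–17201) to 4148 (3399.97–5014). This was the largest difference of the list, -1.64 (SE 0.29, limma adjusted p = 0.0236), and its 4 probes lay between -1.89 and -1.61. The call was kept when dim probes were left out. It was lost after quantile normalization (limma adjusted p = 0.0700) and without Gen-treated mouse 1, 2 or 3 (limma adjusted p up to 0.0675). The co-receptors Boc (0.09), Cdon (-0.08) and Gas1 (0.30) were not called by their brightest probes. The 3 probes of Boc ran from -1.48 to 0.09.

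None of the 24 genes that carry the signal from Smoothened to Gli and none of the 16 of primary cilium transport, the organelle in which this step takes place, was called. The largest differences were those of Arrb2, a beta-arrestin (0.35, limma adjusted p = 0.0844), and Spop, which directs Gli proteins to degradation (-0.34, limma adjusted p = 0.102), and, for the cilium, Ttc21b (0.58, limma adjusted p = 0.310), a dim probe above background on 3 control and 4 Gen arrays. Among cilium genes above background on all 8 arrays, the largest were Dzip1 (0.26) and Ofd1 (0.23). The negative regulator Sufu had 0.12 (SE 0.10). Of 16 measured target genes other than Gli1, Ptch1 and Hhip, 0 were called by limma. The largest differences were Osr1 (-0.44, limma adjusted p = 0.392) and Ccnd2, a cyclin that did not overlap between the groups (-0.43, limma adjusted p = 0.133).

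The genes around Ihh in the uterus were the group with the lowest median, -0.22 over 11 genes, of which 2 were called. Sox17, an epithelial transcription factor, fell from 30346 (27869.9–34798) to 19742 (16311–26281), a log2 difference of -0.62 (SE 0.17, limma adjusted p = 0.0394). Pgr, the progesterone receptor, fell from 375 (324–414) to 240.3 (172–282), a difference of -0.64 (SE 0.18, limma adjusted p = 0.0460). Neither group overlapped, but Sox17 was lost as a call without any 1 of the 8 arrays (limma adjusted p 0.0603 to 0.107) and Pgr without any but control mouse 4 (0.0475 to 0.120). The 4 probes of Sox17 ran from -0.85 to -0.12 and the other probe of Pgr gave -0.33, and with probes averaged by gene neither was called (limma adjusted p = 0.146 and 0.203). The stromal factors Nr2f2 (-0.22), Hand2 (-0.07) and Bmp2 (0.20), and Gata2 (-0.55) and Esr1 (-0.41), were not called.

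**Figure D5:**
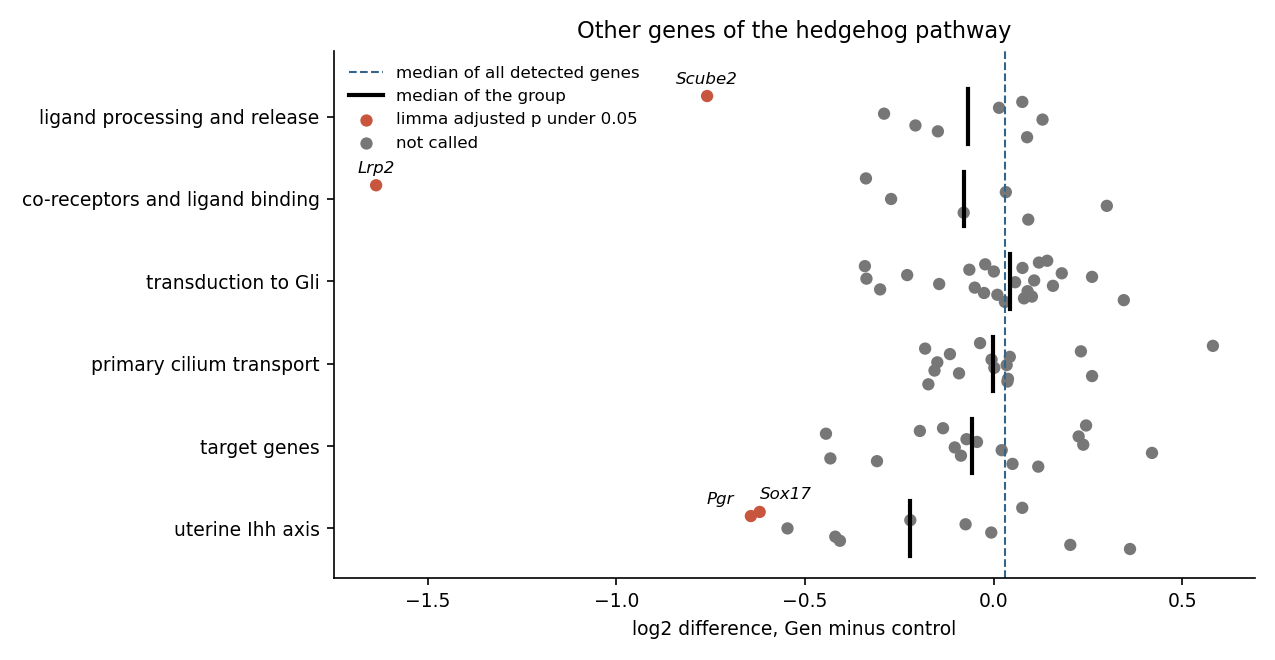
Log2 difference (Gen minus control) of 82 further pathway genes, in 6 groups by role; each point is a gene, black bars are group medians and the dashed line is the median of all 19242 genes measured. The 4 red points, Lrp2, Scube2, Sox17 and Pgr, are the genes called by limma, and of the others only Gata2 and Ttc21b lie more than 0.5 from 0.

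Promoters of 7 of the 9 genes, all but Shh and Gli1, were found in RefSeq (GRCm38.p6; 250 bases before to 50 after the start). The Gli motif GACCACCCA, searched on both strands, was in 0 of the 7 and in 0.253% of 32851 promoters, and its core CCACCCA was in 0 of the 7 and in 9.3% of all.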

How the data were processed

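Oviduct RNA of 8 mice, 4 control and 4 Gen-treated, was measured on Agilent arrays with the single dye Cy3; groups and replicate numbers came from the sample titles, and dose, age and collection time from the study's methods. The authors deposited 1 scanner file per array, made with Agilent Feature Extraction 9.5 per the labels. Its processed signal is a linear intensity, adjusted for background and trends within the array, with no scaling across arrays. In the deposited table of the whole series the intensity of each of the 45018 spots was equal to that of the scanner file, and it was used as an alternative. The Rosetta Resolver step named in the methods follows these values and was not applied.

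Control spots (1639) and spots marked as outliers were removed, log2 signals were averaged over the spots of a probe, and each array was shifted to a common 75th percentile. Gen and control were compared with lmFit and eBayes (limma 3.58.1, R 4.3.3), with Benjamini-Hochberg adjustment over 41173 probes and a threshold of 0.05. A probe is well above background where most of its kept spots carry that mark; intensities hold no counts, and the number of arrays limits the precision. A gene is represented by its probe with the highest mean log2 signal. Exact permutation tests and correlations were run in Python 3.11.15 (scipy 1.17.1) and plots drawn with matplotlib 3.10.9.

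Gene names were updated through tables of GRCm38.p6 by accession for 22951 probes and by name or synonym for 9768, and kept for 8455. Probes are placed as in the array design (mm7); exons and untranslated regions were not analysed here. On simulated data made from these arrays, 144 of 200 changed probes were recovered, 49.0% of the 2-fold and 95.0% of the 4-fold changes.

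The 9 genes, the pathway list and the marker lists were chosen with earlier results of these data known. The genes named are the 9 members, list genes past the threshold and above background in a whole group, the 2 largest differences of each pathway group among genes above background on all 8 arrays, and the 5 genes most like Ihh and Dhh; co-receptors, Sufu, Ttc21b and genes of the uterine axis that are named besides these were chosen after their values were seen. Alternatives were quantile normalization, no scaling, normexp (offset 50), a floor on low signals (65.9), outlier spots kept, the series table, a filter on dim probes (28954 kept), averaging over a gene's probes, the methods' t-test, eBayes with trend and robust settings, an unadjusted p under 0.01, the replicate block, and each array left out; the other probes of a gene and the omission of Gen replicates 1 and 2 were added after the data were seen. Values of some genes on the lists are not reported here, although they enter the counts, medians and sums of their lists.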

Additional observations from a re-analysis of the deposited data

Results flagged for a closer look

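Of 24 groups of 4 arrays, 12 hedgehog probes in each treatment, 1 held a value that stood apart from its group. The brighter Gli2 probe in control mouse 1 read 919.7 against 1389–1466 in the other 3 controls, so that its gap to the nearest was 0.884 of the range of the group, above Dixon's critical value for 4 samples. Chance gives about 1 such group in 20. Without this mouse the log2 difference of Gli2 was -0.08, against 0.07 with it.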

How the results depend on the processing

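The lower Ihh, the higher Dhh and the lower Hhip of Gen-treated mice kept their direction under every alternative run, and the difference of Ihh minus Dhh stayed between -2.45 and -1.79 log2 units when arrays were left out 1 at a time. The single call among the 8 genes above background, Hhip, was less firm. The number of these genes called lower was 0 after quantile normalization, without scaling, with normexp, with the floor, with dim probes left out, by the methods' t-test after adjustment, with the replicate block and without Gen replicates 1 and 2, and 0 to 1 with each array left out; in the same settings the number of pathway genes called lower was 0, except 1 with normexp and 1 with dim probes left out, and 0 to 2 with each array left out. An intensity trend with a robust fit called 1 member higher, Dhh (adjusted p = 0.0497), and 1 pathway gene higher, as did the methods' t-test at the unadjusted threshold for the list. Without scaling, the median of the pathway list was 0.23. Scaling shifts all probes of an array by the same amount, so the move is not particular to the list. The difference of Smo moved alike, from 0.05 to 0.29, and that of Ihh from -1.27 to -1.03. The filter on dim probes left fewer probes in the test, and each omission left fewer arrays. Why the calls moved in any of these settings was not tested.

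Same-numbered control and Gen mice did not deviate together (correlations -0.08, 0.11, -0.02 and -0.18), so the numbers were not taken as pairs. With the replicate block the difference of Ihh minus Dhh was -2.08, with an exact p of 0.125, the smallest that 4 pairs allow. Without Gen replicates 1 and 2 it was -1.95, with 0 members called.

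Among log2 differences, signs turned only for genes with small main values: Ptch1 (-0.05), Smo (0.05), Gli2 (0.07) and Gli3 (0.07). Some correlations turned too, and not only small ones: that of Dhh with Ptch1 was -0.63 in the main run. Without scaling, Ptch1 had 0.19, and without Gen replicates 1 and 2 Ptch1 had 0.14 and Gli2 -0.021. The mean of all probes gave -0.029 for Smo and -0.36 for Gli3, which takes in probes not above background. With each array left out, Ptch1 ranged from -0.20 to 0.030, Gli2 from -0.083 to 0.22 and Gli3 from -0.0018 to 0.15. The correlation of Ihh with Ptch1 was -0.031 after quantile normalization, -0.28 by the other Ihh probe, 0.90 by the other Ptch1 probe (adjusted p = 0.104) and -0.59 to 0.25 with each array left out. That of Dhh with Gli1 was 0.22 without scaling, 0.19 with normexp, 0.14 without the most extreme arrays and -0.18 to 0.29 with each array left out, that of Dhh with Ptch1 0.11 without scaling and 0.22 by the other Ptch1 probe, and that of Ihh with Hhip -0.089 by the other Hhip probe. In each of these settings 0 of the 6 pairs passed the threshold.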
